A study of Sus scrofa with 6 samples.

Results

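The calpain system of porcine satellite cells (PSCs) was examined between an earlier and a later time point of differentiation. It was defined by 10 gene symbols, those of the calpains CAPN1, CAPN2, CAPN3, CAPN5, CAPN6, CAPN7, CAPN10 and CAPN15, the small subunit CAPNS1 and the inhibitor calpastatin (CAST). Of these, 8 were paired with a row among the 28266 rows of the FPKM table, and all 8 were tested. CAST and CAPN10 were not analysed here. The libraries came from Yorkshire skeletal muscle satellite cells, which the study isolated from 3-day-old male pigs, grew on Matrigel and differentiated in DMEM with horse serum. Each time point had 3 libraries, replicates 4, 5 and 6, named NC24h and NC36h. All 6 were read as cells that had received negative control (NC) siRNA, which the study delivered by lipofection, from the letter N of their titles, which the study uses for its NC groups. Cells with siRNA against H19, the subject of the study, were not analysed here. For the later group the sample labels give 48 h, while the series title and the study's methods give 36 h, which is used here. Nothing in the labels states that the replicates came from separate animals or cultures, so p-values judge a difference between the groups only against the spread between these libraries. Wherever 3 values are listed for a group, they are those of replicates 4, 5 and 6 in turn.

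Calpains are calcium-activated cysteine proteases of the cytosol that cut their substrates at few sites and so remodel proteins rather than degrade them. The conventional enzymes, mu-calpain and m-calpain, consist of a large catalytic subunit (CAPN1 or CAPN2) and the shared small subunit CAPNS1, and calpastatin is their specific inhibitor. CAPN3 is the muscle calpain, which binds titin in the sarcomere and whose loss causes a limb-girdle muscular dystrophy, whereas CAPN6 lacks the catalytic cysteine and binds microtubules. In skeletal muscle the system is known for cytoskeletal remodeling during myoblast fusion, for turnover of the sarcomere and for the tenderization of meat after slaughter.

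The libraries held between 16250222 and 16774534 fragments at 24 h and between 17873849 and 21723087 at 36 h, recovered from the FPKM steps. FPKM divides the fragments of a gene by its length and by the library total, so levels of different genes can be compared. The 6 of 8 myotube markers with a row (MYMK, ACTA1, TNNC2, TNNI1, MYL1 and ENO3) all rose to 36 h, with a summed FPKM from 1805 to 5280 at 24 h and from 11544 to 13702 at 36 h. NC24h replicate 6 stood apart from the other NC24h libraries, with a mean log2(FPKM + 1) of these markers of 7.36 against 8.72 and 8.45. It also had the highest mean of the cycling cell markers TOP2A, CCNB1 and CDK1 (3 of 4 with a row), 4.73 against 3.44 and 3.82. These markers all fell, with a summed FPKM from 30.8 to 80.8 at 24 h and from 5.54 to 8.07 at 36 h. Each change of the 8 calpain genes tested is therefore also given without this library. The markers of the labelled cell type with a row, 5 of 7 (MYOD1, MYF5, DES, CDH15 and NCAM1), had summed FPKM from 2355 to 2588 at 24 h and from 3787 to 4161 at 36 h. DES made up most of this sum, with a mean FPKM of 1693 and 3182. MYOD1 (315.7 and 254.2) and MYF5 (84.7 and 59.9) had lower means at 36 h. DES and CDH15 passed the test described below as higher, and NCAM1, MYOD1 and MYF5 did not pass. That test called 16.5% of all genes tested higher. The mean log2(FPKM + 1) of the 5 markers was 8.03, 8.15 and 8.25 at 24 h and 8.26, 8.33 and 8.42 at 36 h. Of the 9 fibroblast and mesenchymal markers 6 had a row and 4 were tested. DCN and LUM fell and COL3A1 and PDGFRB rose, with sums over the list from 228.5 to 297.03 at 24 h and from 398.16 to 537.85 at 36 h. COL3A1 made up most of these sums, with a mean FPKM of 241 and 443. The mean log2(FPKM + 1) of the 6 markers went the other way, from 2.78, 2.81 and 2.87 at 24 h to 2.58, 2.62 and 2.56 at 36 h. The summed FPKM did not exceed 1.67 for endothelium (2 of 3 markers, KDR listed at 0 in every library), 2.44 for leukocytes (3 of 3, PTPRC at 0), 4.39 for smooth muscle (2 of 3) and 0.0773 for adipocytes (1 of 3). In bulk RNA, more cells of a type and more RNA per cell cannot be told apart. The part of the cell makeup in the results below was not tested.

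Of the 8 calpain genes, CAPN3, CAPN6 and CAPN15 rose and CAPN2 and CAPN7 fell between NC24h and NC36h, and CAPN1, CAPNS1 and CAPN5 did not pass the test. The test was limma on log2(FPKM + 1) over the 14060 genes whose mean FPKM reached 1, with a threshold of 0.05 on the Benjamini-Hochberg adjusted p. In this comparison 50.9% of all genes tested were called, 16.5% higher and 34.4% lower at 36 h, so 5 of 8 is near the background. The groups did not overlap in 6 of the 8 calpain genes, 3 higher and 3 lower, against 63.6% of all genes tested (21.0% higher and 42.6% lower). A log2 change is the difference of the mean log2(FPKM + 1), NC36h minus NC24h, and so is not the log2 of the fold of mean FPKM, which is given beside it for the largest changes. The added 1 makes it smaller for genes of low FPKM. The median log2 change was 0.02 over the 8 genes and -0.16 over all genes. With median-ratio scaling, which takes the geometric mean of each gene as a reference and sets the typical gene of each library to it, the median over all genes was -0.01, 23.9% of the genes were called higher and 22.3% lower, and 6 of the 8 calpain genes passed, CAPN1 being the addition. Without NC24h replicate 6 the 6 that passed were the same, against 52.2% of all genes (17.4% higher and 34.8% lower). What set the calpain genes apart from each other was the size of the change, since CAPN3 and CAPN6 changed by more than 2 on the log2 scale, as did 0.939% of all genes tested in either direction.

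**Figure D1:**
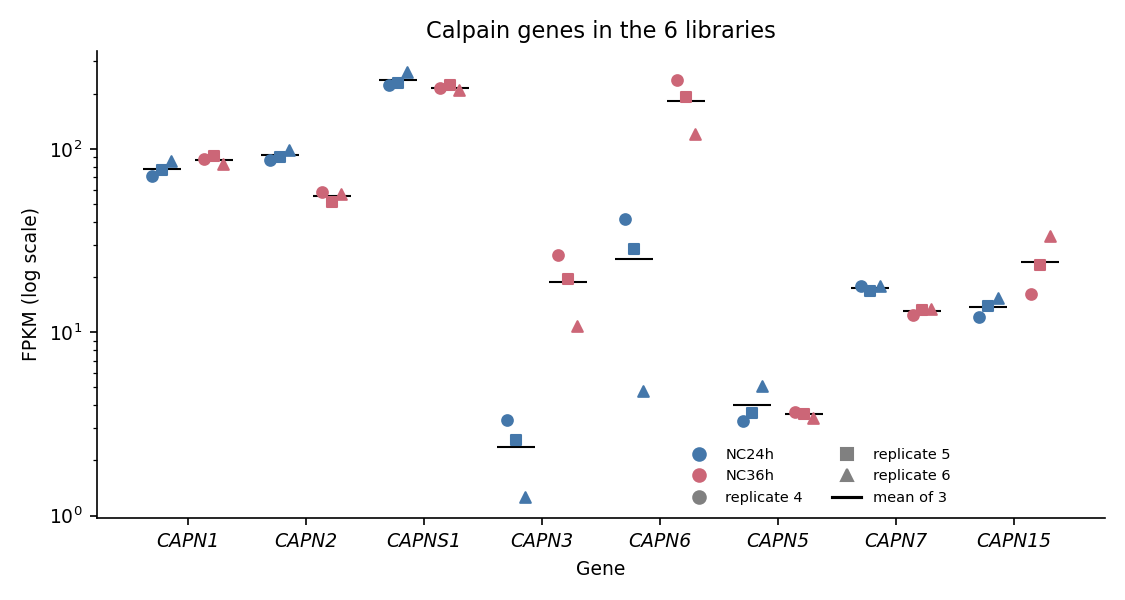
FPKM of the 8 calpain genes (log axis) in the 3 NC24h libraries (blue) and the 3 NC36h libraries (red), with the symbol shape giving the replicate and the line the mean of 3. CAPN3 and CAPN6 were higher in every NC36h library than in any NC24h library, CAPN2 and CAPN7 were lower, and CAPNS1 stayed between 209.9 and 262 throughout.

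The order of the expression levels differed between the time points. At 24 h the small subunit CAPNS1 was highest at 238 ± 21.1 FPKM (SD, n = 3), followed by CAPN2 at 92.1 ± 5.95 and CAPN1 at 77.7 ± 7.48, and the ranges of these genes did not overlap. CAPN6 came next at 25.0 ± 18.7 and was not separated from CAPN7 at 17.4 ± 0.605, because the lowest of its libraries lay below CAPN7. CAPN15 followed at 13.8 ± 1.59, and CAPN5 at 4.0 ± 0.951 and CAPN3 at 2.38 ± 1.03 overlapped at the low end. At 36 h CAPN6 was second at 183 ± 59.3, and its range overlapped that of CAPNS1 at 216 ± 6.60. CAPN1 now lay above CAPN2 without overlap, at 87.1 ± 4.17 against 55.4 ± 3.57. CAPN15, CAPN3 and CAPN7 formed a middle group at 24.3 ± 8.61, 18.9 ± 7.71 and 12.97 ± 0.503, in which neighbours overlapped, and CAPN5 was lowest at 3.56 ± 0.139.

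CAPN3 (ENSSSCG00000004728) is a gene of chromosome 1 (Sscrofa11.1, 128960117 to 129013508, like all coordinates here from RefSeq). It had an FPKM of 3.30, 2.57 and 1.27 across the NC24h libraries, from 179, 135 and 67 fragments. Across the NC36h libraries it was 26.2, 19.5 and 10.8, from 1749, 1371 and 626 fragments. The lowest library at 36 h was thus above the highest at 24 h, and the libraries of a group differed 2.60-fold at 24 h and 2.42-fold at 36 h. The mean FPKM rose 7.92-fold, with a log2 change of 2.52 ± 0.35 (SE; adjusted p = 0.00215 in limma), rank 39 of the 14060 changes ordered from the largest rise. Without NC24h replicate 6 it was 2.26 (limma adjusted p = 0.00254, range 0.00105 to 0.0139 over 15 alternatives). At 24 h CAPN3 had a lower level than most genes tested, with a median percentile of 17.9, and at 36 h the median percentile was 69.5.

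CAPN6 (ENSSSCG00000012584), on chromosome X from 91258696 to 91288128, had an FPKM of 41.7, 28.5 and 4.79 across the NC24h libraries. Across the NC36h libraries it reached 238, 191.7 and 120.1, from 13540, 11489 and 5922 fragments. All NC36h libraries were above all NC24h libraries, but the NC24h libraries differed 8.69-fold among themselves, and replicate 6, with 216 fragments, was the low one. The mean FPKM rose 7.33-fold, with a log2 change of 3.19 ± 0.72 (SE; adjusted p = 0.0107 in limma). This was rank 5 of all changes ordered from the largest rise. The log2 change was 2.32 without NC24h replicate 6 and the mean then rose 5.22-fold (limma adjusted p = 0.00170, range 0.00170 to 0.0405 over 15 alternatives). Of the 8 log2 changes, that of CAPN6 moved most when that library was left out.

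The genes whose levels over the 6 libraries were most like those of CAPN3 and CAPN6 were found by the root mean square distance of log2(FPKM + 1), each gene centred on its own mean, among 5936 other genes with a symbol and a mean FPKM of at least 5. For CAPN3 they were NEURL1, a ubiquitin ligase, LRTM1, and RAMP1, a partner of the calcitonin receptor-like receptor, at distances of 0.16, 0.18 and 0.19. NEURL1 had 1.89 ± 0.530 FPKM at 24 h and 14.3 ± 4.94 at 36 h (SD, n = 3), a log2 change of 2.36. LRTM1 had 2.77 ± 1.59 and 24.6 ± 9.01, and RAMP1 6.87 ± 2.68 and 38.2 ± 8.77. For CAPN6 the nearest were MYBPH, a myosin binding protein, MYL5, a myosin light chain, and SPARCL1, a secreted matricellular glycoprotein, at 0.31, 0.34 and 0.39. MYBPH had 65.2 ± 38.4 FPKM at 24 h and 512 ± 87.4 at 36 h, a log2 change of 3.17. CAPN3 and CAPN6 themselves were 0.70 apart, so CAPN6 was at place 103 among the genes near CAPN3 and CAPN3 at place 27 among those near CAPN6. With 6 libraries in separate time points, these distances describe the shared rise and the order of the libraries and were not tested.

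Within each group, the libraries also fell in the same order by the myotube markers as by CAPN3 and CAPN6. Replicate 6 was lowest in these markers in either group (7.36 in NC24h and 9.66 in NC36h as the mean log2(FPKM + 1) of the 6 markers), and it was lowest in CAPN3 and CAPN6 in either group. In NC36h the other libraries had 10.19 and 10.09. CAPN15 ran the other way within the groups and was highest in replicate 6 of both, although it was higher at 36 h than at 24 h. No correlation is given, because the 6 libraries form a cluster for each time point, and the part of the marker levels in these values was not tested.

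**Figure D2:**
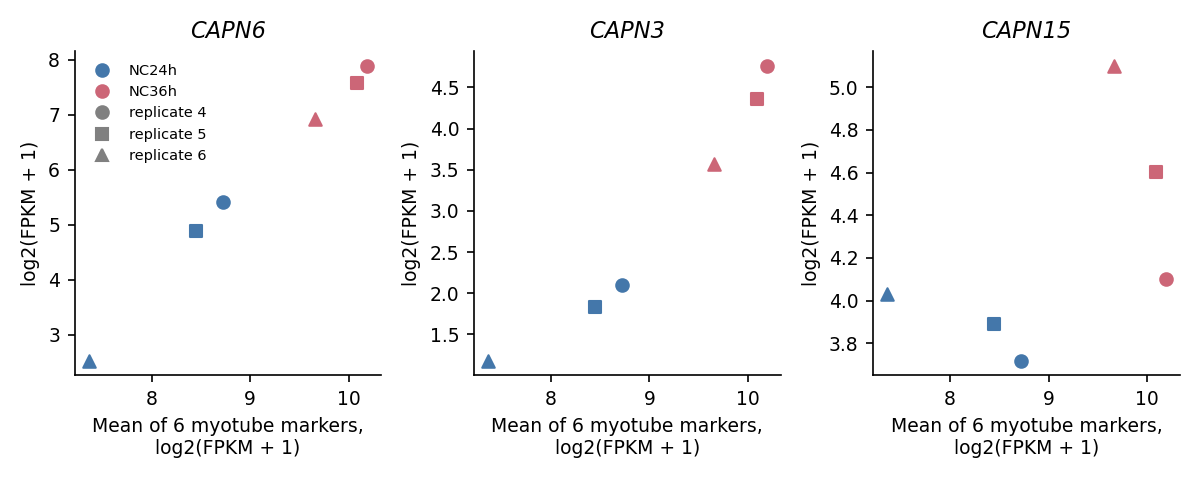
log2(FPKM + 1) of CAPN6, CAPN3 and CAPN15 against the mean log2(FPKM + 1) of 6 myotube markers, one point per library (NC24h blue, NC36h red, symbol shape for the replicate). CAPN6 and CAPN3 were lowest in NC24h replicate 6, which had the lowest marker mean (7.36), whereas CAPN15 was highest in the library with the lowest marker mean of each group.

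Among the conventional calpains, CAPN2 fell and CAPN1 did not pass the test. CAPN2 (ENSSSCG00000029411), the large subunit of m-calpain, lies on chromosome 10 from 19758824 to 19820241. Its FPKM was 87.3, 90.4 and 98.8 across the NC24h libraries and 57.9, 51.3 and 56.9 across the NC36h libraries. The groups were far apart compared with the spread inside each, and the mean at 36 h was 0.601 of that at 24 h. The log2 change was -0.72 ± 0.08 (SE; adjusted p = 0.00111 in limma), and CAPN2 passed in each of 15 alternatives (log2 change from -0.76 to -0.55, adjusted p from 0.000719 to 0.00885). Without NC24h replicate 6 it was -0.67.

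CAPN1 (ENSSSCG00000012999), the large subunit of mu-calpain, lies on chromosome 2 from 6997513 to 7024410. It had 70.7, 76.7 and 85.6 FPKM across the NC24h libraries and 87.6, 91.0 and 82.7 across the NC36h libraries. The groups overlapped, since NC24h replicate 6 lay above NC36h replicate 6. The log2 change of 0.17 ± 0.08 (SE; 95% interval -0.03 to 0.37) did not pass the test on the deposited values (limma adjusted p = 0.140). With median-ratio scaling the log2 change was 0.34 (limma adjusted p = 0.0120), and without NC24h replicate 6 it was 0.24 (limma adjusted p = 0.0260), the range over 15 alternatives being 0.0120 to 0.347. With quantile normalization the log2 change was 0.15 (limma adjusted p = 0.211), and CAPN1 passed in 2 of the 15 alternatives. The call for CAPN1 thus depended on which scaling was used and on 1 library.

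CAPNS1 (ENSSSCG00000030149), the small subunit that both conventional calpains share, lies on chromosome 6 from 45511410 to 45518610. It was the highest of the calpain genes in most libraries, with 223, 229.6 and 262 FPKM across the NC24h libraries and 215, 223 and 209.9 across the NC36h libraries. The NC36h libraries all lay below the NC24h libraries, but only narrowly, 222.9 against 223.0 for the nearest pair. Its log2 change of -0.14 ± 0.08 (SE; 95% interval -0.33 to 0.05, adjusted p = 0.175 in limma) did not pass. It was -0.07 without NC24h replicate 6, and its sign turned with median-ratio scaling, to 0.03 with a 95% interval from -0.13 to 0.20.

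Ratios of FPKM within a library do not depend on how the libraries are scaled. The ratio of CAPN2 to CAPN1 was 1.23, 1.18 and 1.15 across the NC24h libraries and 0.661, 0.564 and 0.688 across the NC36h libraries. CAPN2 was thus the more abundant transcript in each NC24h library and CAPN1 in each NC36h library. The mean log2 ratio differed by -0.90 with a pooled SD of 0.11 (two-sided exact permutation p = 0.1, adjusted over 3 ratios 0.15). For 3 libraries against 3 an exact p of 0.1 is the smallest possible, so no ratio could pass the threshold. The sum of CAPN1 and CAPN2 relative to CAPNS1 was 0.713 ± 0.0133 (SD, n = 3) at 24 h and 0.660 ± 0.0202 at 36 h. This ratio was also lower in every NC36h library, but by a small amount, a log2 difference of -0.11 (two-sided exact permutation p = 0.1, adjusted 0.15). The ratio of CAPN6 to CAPN3 was 9.17 ± 4.73 and 9.995 ± 1.02, with overlapping groups, and NC24h replicate 6 had 3.78 where the other NC24h libraries had 12.62 and 11.11 (log2 difference 0.30, two-sided exact permutation p = 1). Without NC24h replicate 6 this log2 difference was -0.25.

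**Figure D3:**
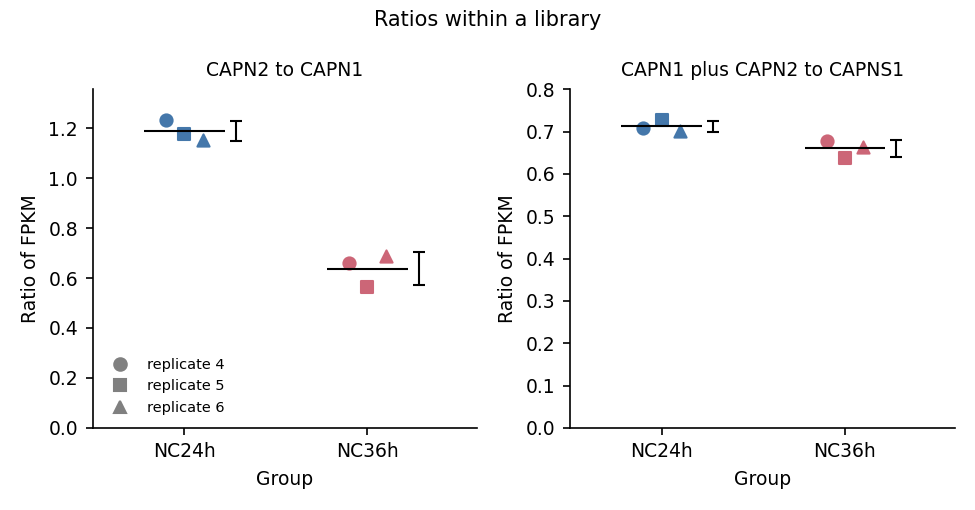
Ratio of FPKM of CAPN2 to CAPN1 (left) and of the sum of CAPN1 and CAPN2 to CAPNS1 (right) in each library (points, symbol shape for the replicate), with the mean (line) and the SD of 3 libraries (error bar). CAPN2 to CAPN1 lay between 1.15 and 1.23 at 24 h and between 0.564 and 0.688 at 36 h, while the ratio to CAPNS1 moved from 0.713 to 0.660.

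CAPN5, CAPN7 and CAPN15 were grouped here as atypical calpains, apart from CAPN6, which is described above. They lack the calcium-binding domain that joins the conventional large subunits to CAPNS1. Of their genes CAPN7 fell, CAPN15 rose and CAPN5 did not pass the test. CAPN7 (ENSSSCG00000030697), on chromosome 13 from 2452385 to 2503575, encodes a calpain that binds the ESCRT membrane-sorting machinery. It had 17.8, 16.7 and 17.8 FPKM across the NC24h libraries and 12.4, 13.1 and 13.4 across the NC36h libraries. These were among the tightest values of the 8 genes, and the groups did not overlap. The log2 change was -0.40 ± 0.07 (SE; adjusted p = 0.00351 in limma), and -0.24 with median-ratio scaling (limma adjusted p = 0.0265), the range over 15 alternatives being 0.00243 to 0.0265. Without NC24h replicate 6 it was -0.39.

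CAPN15 (ENSSSCG00000007993), on chromosome 3 from 41190626 to 41208657, encodes a calpain with zinc fingers that is related to the small optic lobes protein of flies. It had 12.2, 13.9 and 15.4 FPKM across the NC24h libraries and 16.2, 23.3 and 33.3 across the NC36h libraries. The groups did not overlap, but the lowest NC36h library was close to the highest NC24h library, and the NC36h libraries differed 2.06-fold. The log2 change was 0.72 ± 0.24 (SE; adjusted p = 0.0419 in limma). CAPN15 missed the threshold without NC24h replicate 4 (0.0993), NC24h replicate 5 (0.0946), NC36h replicate 5 (0.104) or NC36h replicate 6 (0.0758), and with no filter on low FPKM (0.0673), where all values are limma adjusted p, and the range over 15 alternatives was 0.0119 to 0.104. The log2 change was 0.80 without NC24h replicate 6 and 0.47 without NC36h replicate 6.

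CAPN5 (ENSSSCG00000014875), on chromosome 9 from 11194302 to 11246713, a calpain whose human gene is mutated in an inherited inflammation of the eye, was expressed at a low level. Its FPKM was 3.29, 3.63 and 5.08 across the NC24h libraries and 3.69, 3.57 and 3.42 across the NC36h libraries. The groups overlapped, and NC24h replicate 6 was the highest library. The log2 change was -0.12 (95% interval -0.46 to 0.22, limma adjusted p = 0.519), and its sign depended on the scaling and on NC24h replicate 6, without which it was 0.03.

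**Figure D4:**
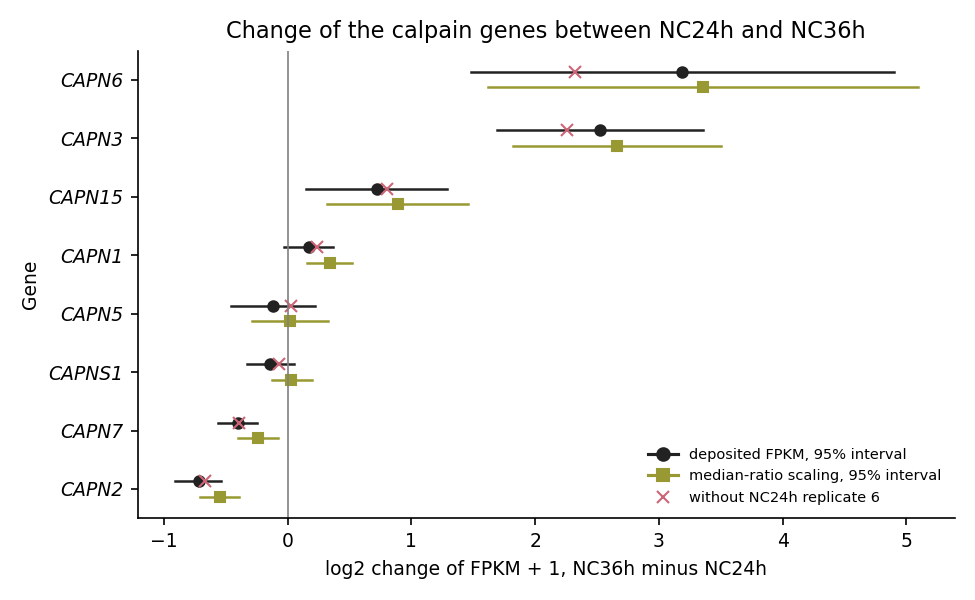
log2 change of FPKM + 1 (NC36h minus NC24h) of the 8 calpain genes with its 95% interval from limma, on the deposited FPKM values (black circles) and after median-ratio scaling (olive squares), and without NC24h replicate 6 (crosses, no interval drawn). The intervals of CAPN6, CAPN3, CAPN15, CAPN7 and CAPN2 excluded 0 under both scalings, that of CAPN1 only after median-ratio scaling, and those of CAPNS1 and CAPN5 under neither.

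The makeup of the calpain transcripts was described over the 7 genes other than CAPNS1, as shares of their summed FPKM in a library. The sum was 236, 233 and 229 FPKM across the NC24h libraries and 442, 393 and 321 across the NC36h libraries. Without CAPN6 the sum was 207 ± 15.0 FPKM (SD, n = 3) at 24 h and 202 ± 1.75 at 36 h, with overlapping groups. The higher total at 36 h was therefore carried by CAPN6. CAPN6 made up 17.6%, 12.3% and 2.10% of the sum across the NC24h libraries and 53.8%, 48.7% and 37.5% across the NC36h libraries. Without replicate 6 its mean share at 24 h was 15.0%. The share of CAPN2 went from 39.7% ± 3.203 to 14.6% ± 2.70 and that of CAPN1 from 33.5% ± 3.77 to 22.9% ± 2.99. Shares add to a whole, and the share of CAPN1 was lower although its mean FPKM was not. CAPN3 took 1.02% ± 0.428 at 24 h and 4.76% ± 1.29 at 36 h.

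**Figure D5:**
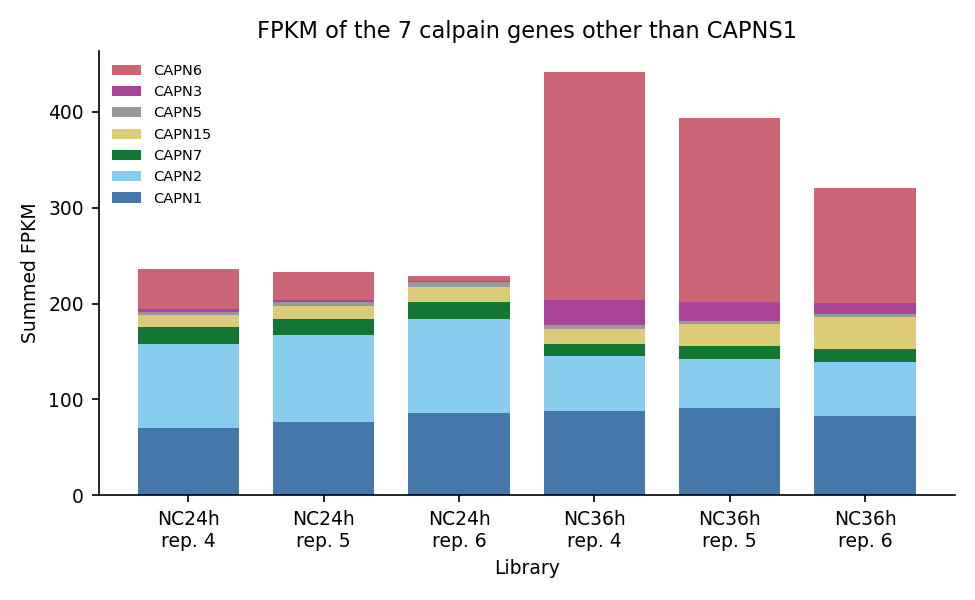
Stacked FPKM of the 7 calpain genes other than CAPNS1 in each library, from 0. The part below CAPN6 stayed between 194.5 and 223.8 FPKM in all 6 libraries, while CAPN6 added from 4.79 to 41.7 FPKM at 24 h and from 120.1 to 238 at 36 h.

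Of the other calpain genes and their penta-EF-hand relatives, 7 of 11 listed genes had a row and 2 were tested, and both were lower at 36 h, as were 34.4% of all genes tested (22.3% with median-ratio scaling). SRI (sorcin), a calcium-binding regulator of the ryanodine receptor, had 33.6 ± 2.86 FPKM (SD, n = 3) at 24 h and 16.6 ± 1.58 at 36 h, a log2 change of -0.98 (limma adjusted p = 0.000942). GCA (grancalcin) had 2.55 ± 0.475 and 0.768 ± 0.105, a log2 change of -1.0 (limma adjusted p = 0.00209). The remaining calpains lay under the FPKM minimum, and their values were singled out after they had been seen. CAPN13 and CAPN14 were listed at 0 in every library, and CAPN9 had at most 3 fragments in a library. CAPN11, known from testis, had 5, 3 and 4 fragments at 24 h and 28, 19 and 22 at 36 h. CAPN12 had 32, 38 and 46 fragments at 24 h and 25, 25 and 23 at 36 h. The groups did not overlap in either gene, CAPN11 being higher and CAPN12 lower at 36 h. Over all genes tested, to which neither belongs, 63.6% did not overlap (21.0% higher and 42.6% lower). When no filter was applied (21614 genes), the log2 change was 0.46 for CAPN11 (limma adjusted p = 0.00488) and -0.41 for CAPN12 (limma adjusted p = 0.0192). That fit called 7280 genes, 2440 higher and 4840 lower. Neither change is given without NC24h replicate 6, the library with the most CAPN12 fragments.

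Proteins described as substrates or partners of calpains were taken as lists. In the sarcomere and Z-disc list, 6 of 11 genes were tested. At 36 h 4 of them were higher and 0 lower, and the remaining 2 (ANKRD1 and MYOM1) did not pass in limma (0 lower also at an unadjusted p under 0.05). Over all genes tested, 16.5% were called higher and 34.4% lower. The median log2 change was 0.67, against -0.16 over all genes. ACTN2, the Z-disc alpha-actinin, had 261 ± 134 FPKM (SD, n = 3) at 24 h and 661 ± 112 at 36 h, a log2 change of 1.5 (limma adjusted p = 0.0255), and missed the threshold without NC36h replicate 4 or 5 (range of adjusted p over 15 alternatives 0.00381 to 0.0797). NC24h replicate 6 was its lowest library, at 110.9 FPKM, and without it the log2 change was 0.97. The FPKM summed over the list was also lowest in that library, 3424 against up to 5861 in the other NC24h libraries. DES, the muscle intermediate filament desmin, which is also among the markers of the labelled cell type, rose from 1693 ± 211 to 3182 ± 268, and NEB, the thin filament protein nebulin, from 238.9 ± 62.6 to 426 ± 36.5, with log2 changes of 0.91 and 0.86 (limma adjusted p = 0.00202 and 0.0112). NC24h replicate 6 was the lowest library of DES and NEB as well, at 1452 and 168.8 FPKM, and without it their log2 changes were 0.81 and 0.63. FLNC, the muscle filamin that CAPN3 cuts, had a log2 change of 0.47 (limma adjusted p = 0.0365) and lost its call in 5 of 15 alternatives (NC24h replicate 5 or any NC36h replicate left out, and no filter). Over all 15 the limma adjusted p ranged from 0.00867 to 0.103, and without NC24h replicate 6 the log2 change was 0.30.

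In the cytoskeleton and adhesion list, 8 of 15 genes were tested, with 2 higher (DYSF and VCL), 4 lower (VIM, RHOA, EZR and TLN1) and 2 not passing, against 16.5% higher and 34.4% lower over all genes, and a median log2 change of -0.16, the same as over all genes. With median-ratio scaling 3 were higher and 2 lower. DYSF, the membrane repair protein dysferlin, rose from 1.62 ± 0.592 FPKM (SD, n = 3) to 10.4 ± 3.96, a log2 change of 2.08 (limma adjusted p = 0.00223). VCL, the adhesion protein vinculin, rose from 210.0 ± 0.950 to 270.1 ± 12.8 (log2 change 0.36, limma adjusted p = 0.00383), and RHOA, a small GTPase of the actin cytoskeleton, fell from 245 ± 3.89 to 190.2 ± 4.60 (log2 change -0.36, limma adjusted p = 0.00276). With median-ratio scaling the log2 change of RHOA was -0.19. VIM, the intermediate filament vimentin, had a log2 change of -0.66 (limma adjusted p = 0.0370), which was -0.41 without NC24h replicate 6, and its call was lost with median-ratio scaling (0.0835) and in 6 other of the 15 alternatives, with adjusted p up to 0.0953. In the signalling and transcription list, 6 of 8 genes were tested, with 0 higher (also 0 at an unadjusted p under 0.05), 2 lower and 4 not passing in limma, where 34.4% of all genes were lower. The median log2 change was -0.28 against -0.16 over all genes. With median-ratio scaling 1 was higher and 1 lower. PPP3CB, a catalytic subunit of the phosphatase calcineurin, fell from 49.4 ± 0.174 to 37.7 ± 0.267 FPKM (log2 change -0.38, limma adjusted p = 0.00196), and its log2 change was -0.21 with median-ratio scaling. CDK5R1, the activator of CDK5 that calpain cuts, fell from 33.1 ± 2.05 to 23.6 ± 2.69 (log2 change -0.47, limma adjusted p = 0.00757). Median-ratio scaling took CDK5R1 to -0.31 and out of the calls (limma adjusted p = 0.0517, range 0.00663 to 0.0517 over 15 alternatives).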

How the data were processed

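Paired-end RNA-seq of 6 PSC libraries was analysed. Per the methods, the authors used HISAT2 (mapping to Sscrofa11.1), StringTie (assembly) and HTSeq (counting), and deposited FPKM values, that is, fragments scaled to gene length and library total. The submitters' processing notes name TopHat2, Cufflinks and HTSeq instead. Strandedness is not given in the sources used here. The protocol field names endometrium as the RNA source, where the other labels name skeletal muscle.

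Symbols came from a table of Ensembl identifiers and coordinates from RefSeq (Sscrofa11.1). Fragments and gene lengths were recovered from the steps of the FPKM values. Fragments were whole within a tolerance of 0.004, wider at the highest counts, for each of 19543 genes that had 3 or more libraries above 0. For genes whose mean FPKM reached 1, limma 3.58.1 (R 4.3.3) was run on log2(FPKM + 1) (eBayes with trend, two-sided, threshold 0.05). It was also run on simulated data with independent noise and few changed genes. That setting is unlike these data, and its outcome is not used here. Ratios were compared by exact permutation in scipy 1.17.1. Ratios with CAST were not computed. As alternatives, the scaling was replaced by median ratios or quantile normalization, the FPKM minimum by 5 or none, and the pseudocount by 0.1 or 0.01. The trend was dropped, the replicate number was entered as a block, each library was left out, and voom was run on the recovered fragments. Median-ratio scaling without NC24h replicate 6 was added after seeing the data. Named list genes are up to 4 per list with the largest change among those past the threshold without overlap. The members and lists were chosen with earlier results of these data known.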

Additional observations from a re-analysis of the deposited data

How the results depend on the processing

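The calpain genes past the threshold numbered 5 of 8 on the deposited values and from 4 to 6 over the alternatives, and the genes called over the whole table numbered 7156 and from 4889 to 7336 when 1 library was left out. CAPN2, CAPN3, CAPN6 and CAPN7 kept direction and call in every alternative run. CAPNS1, which did not pass in any alternative, turned from -0.14 to 0.03 with median-ratio scaling and to 0.09 with that scaling and without NC24h replicate 6. With quantile normalization its log2 change kept its sign, at -0.19. CAPN5 turned from -0.12 to 0.02 with median-ratio scaling, 0.07 with quantile normalization, 0.03 without NC24h replicate 6 (-0.22 to 0.03 when any 1 library was left out) and 0.15 with median-ratio scaling and without that library. CAPN5 has no value for a mean FPKM of at least 5. The log2 difference of the CAPN6 to CAPN3 ratio ranged from -0.25 to 0.62 over the fits that left out 1 library. The cause was not tested.

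The replicate numbers 4, 5 and 6 were not taken to pair the samples. The deviations of same-numbered libraries from their group means correlated at 0.15, -0.02 and 0.18 across 14060 genes. Differently numbered libraries were not compared, so these values cannot settle whether the numbers pair the samples. In both groups CAPN3 and CAPN6 decreased from replicate 4 to 6, and CAPN15 increased. With the replicate block 7034 genes and the same number of calpain genes, 5, were called. The limma adjusted p with the block was lower for CAPN3 (0.00105), CAPN6 (0.00405) and CAPN15 (0.0126) than without it. It was higher for CAPN2 (0.00289) and CAPN7 (0.0103). CAPN11, CAPN12 and genes at similar levels rest on few fragments, and intervals do not cover errors other than the spread between libraries.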

Other observations

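The cathepsins and cystatins, proteases of the lysosome and protease inhibitors, were a list beside the calpains. Of 15 genes, 11 had a row and 10 were tested, with 3 higher (CTSB, CST6 and CSTB), 2 lower (CTSC and CTSO) and 5 not passing at 36 h (limma, threshold 0.05), against 16.5% higher and 34.4% lower over all genes, and a median log2 change of -0.21 against -0.16 over all genes. CTSB, the most abundant of them, rose from 777 ± 62.5 FPKM (SD, n = 3) to 1085 ± 32.3, a log2 change of 0.48 (limma adjusted p = 0.00423). CTSC and CTSO fell, with log2 changes of -1.11 and -1.02 (limma adjusted p = 0.00478 and 0.00463), from 35.2 ± 10.4 to 15.5 ± 1.66 FPKM and from 3.51 ± 1.15 to 1.18 ± 0.0880. CST6, an inhibitor of cathepsins, rose from 0.475 ± 0.285 to 2.001 ± 0.267 FPKM on 14 and 72 fragments per group, a log2 change of 1.04 (limma adjusted p = 0.00365). The calls of these 4 genes held in every alternative that could be run. NC24h replicate 6 was the highest library of CTSC and CTSO, at 46.6 and 4.83 FPKM. Without it the log2 changes were -0.89 for CTSC, -0.82 for CTSO, 0.42 for CTSB and 0.96 for CST6.

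Because one label names endometrium, 4 epithelial and hormone receptor genes were looked up after the data had been seen. PGR was listed at 0 in every library, EPCAM did not exceed 0.0370 FPKM and ESR1 did not exceed 0.255. CDH1, the epithelial cadherin, had from 0.107 to 0.430 FPKM at 24 h and from 2.35 to 4.36 at 36 h, on 18 and 255 fragments per group, a log2 change of 1.79 (limma adjusted p = 0.00155).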
